A study of Mus musculus with 18 samples.

Results

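The expression of 6 genes linked to excitatory neurons of the midbrain and thalamus was followed through 3 brain regions of mice treated with the neurotoxin MPTP or with saline. They were Slc17a6, Shox2, Mab21l1, Ebf3, Lef1 and Tnnt1, and they were taken as every probe set whose annotated symbol was one of these 6 names. That gave 12 probe sets for 6 genes, out of 45101 probe sets and 18194 genes on the array. The genes had been picked from earlier results of these same arrays, by their level in the saline regions and by differences between treatments in striatum and midbrain. For the 6 genes those comparisons, and all differences between regions, are therefore given as descriptions without a test. The treatment in frontal cortex, which the choice had not used, is the comparison in which they are tested. Tests in midbrain are printed for other genes only, from lists that were drawn up with earlier results of these arrays known.

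The animals were male C57BL/6J mice, 14 weeks old, with no genetic change named. The MPTP group received 30 mg/kg of MPTP, as free base, into the peritoneum on each of 5 days, and the other group received saline by the same route. Brains were taken 4 days after the last MPTP injection. The 18 arrays fell into 6 groups of 3, saline and MPTP for each of frontal cortex, striatum and midbrain, here called by region and treatment with replicates 1 to 3. Brain tissue turns MPTP into a toxic product that dopaminergic neurons take up through their dopamine transporter, and its use as a model of Parkinson's disease rests on the damage it does there. These are pieces of whole tissue, so that fewer cells of one type and less RNA per cell cannot be told apart, and the arrays do not show which cells held a transcript.

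Neurons that release glutamate must first load it into vesicles, and Slc17a6 (VGLUT2) is the vesicular transporter that does this in most excitatory neurons of the thalamus and brainstem, where the cortex mostly uses Slc17a7 (VGLUT1). The next 4 genes are tied to gene regulation or development. Shox2 is a homeobox factor, Ebf3 a helix-loop-helix factor of the EBF family that acts in neuronal differentiation, Lef1 an HMG-box factor through which Wnt and beta-catenin act on their target genes, and Mab21l1 a member of the Mab21 family known from eye development. Tnnt1 encodes the troponin T of slow skeletal muscle, the subunit that ties the troponin complex to tropomyosin.

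Promoter windows of the 250 bases before a transcript start were found for 5 of the 6 genes, 9 windows in all, in the RefSeq table of build GRCm38.p6. Those of 3 genes are printed here, namely Slc17a6, whose product sets the transmitter of these neurons, and Shox2 and Tnnt1, whose windows held a TATAAA. Capitals mark TATAAA read on the gene's strand and TCAAAG, which is the TCF/LEF core CTTTGA read on the other strand, and no motif searched was found in the first.
Slc17a6, chr7:51621580-51621829, plus strand: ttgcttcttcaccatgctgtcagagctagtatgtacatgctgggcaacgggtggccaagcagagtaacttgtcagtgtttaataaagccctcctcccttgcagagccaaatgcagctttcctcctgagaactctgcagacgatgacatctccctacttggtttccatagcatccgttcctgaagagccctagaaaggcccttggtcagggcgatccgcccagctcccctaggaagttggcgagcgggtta
Shox2, chr3:66981772-66982021, minus strand: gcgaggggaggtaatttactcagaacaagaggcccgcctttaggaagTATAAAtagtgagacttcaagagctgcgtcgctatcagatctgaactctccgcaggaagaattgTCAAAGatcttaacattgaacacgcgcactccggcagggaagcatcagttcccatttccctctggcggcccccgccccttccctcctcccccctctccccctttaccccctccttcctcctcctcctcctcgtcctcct
Tnnt1, chr7:4515976-4516225, minus strand: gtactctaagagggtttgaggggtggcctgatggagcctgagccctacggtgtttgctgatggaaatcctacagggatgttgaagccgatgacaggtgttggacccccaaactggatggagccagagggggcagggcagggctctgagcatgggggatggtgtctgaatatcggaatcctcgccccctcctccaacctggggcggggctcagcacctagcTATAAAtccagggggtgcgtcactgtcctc

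The TATAAA of Tnnt1 began 30 bases before the transcript start, and that of Shox2 began 203 bases before it, with TCAAAG at 139 bases. Of all 32851 windows of this length, 7.59% held TATAAA on the gene's strand and 13.83% held CTTTGA on either strand. A second Slc17a6 start held the homeodomain core TAATTA at 81 bases, a motif found on either strand in 4.84% of the windows. One of the 4 Lef1 windows held TCAAAG at 180 and at 120 bases before its start. The EBF core motif, searched on both strands and present in 0.78% of the windows, was found in none of the 9, and the Ebf3 window, 80.0% G and C, held none of the motifs. None of these motifs overlapped another, and a match is a stretch of letters, not a shown binding site.

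Values are log2 expression summaries made by RMA, so that a difference of 1 is a doubling. The median of all values was 5.18, and a level below it has not been shown to lie above background. Testing was limited to the 11741 genes with a regional mean of 5.18 or more, all 6 among them, although Shox2, Mab21l1, Ebf3 and Tnnt1 reached it as a regional mean in midbrain alone. These 4 had thus to be higher there in order to be tested, and no count over the 6 genes supports anything below. Array medians lay between 5.14 and 5.21 and interquartile ranges between 3.37 and 3.65, and the correlation between arrays within a group was 0.991 to 0.997. Of the region markers that were tested, 5 of 5 for striatum, 5 of 5 for cortex and 4 of 5 for midbrain had their highest mean in the region of their label. On the 3 saline midbrain arrays, however, genes of neighbouring structures differed from array to array, as described further on. Each gene is given by its probe set of highest mean, and the other probe sets follow it.

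Slc17a6 was the only one of the 6 above 5.18 in cortex by a wide margin, and its levels ran midbrain, cortex, striatum. On the saline arrays it stood at 10.92, 10.43 and 10.54 in midbrain, at 6.89, 6.59 and 6.68 in cortex, and at 5.34, 4.73 and 5.01 in striatum. The MPTP arrays gave 11.06, 10.71 and 10.92 in midbrain, 6.62, 7.01 and 6.70 in cortex, and 3.90, 4.43 and 4.51 in striatum. No array of one region overlapped with an array of another, and in striatum 5 of the 6 values lay below 5.18. On the saline arrays the means were 10.63 ± 0.26 in midbrain, 6.72 ± 0.16 in cortex and 5.03 ± 0.30 in striatum (SD, n = 3). The second probe set gave the same order, at 10.73 ± 0.20, 6.36 ± 0.18 and 4.59 ± 0.15.

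Shox2 was high in midbrain and low in both other regions. Its saline values were 9.10, 8.48 and 8.58 in midbrain, 3.68, 3.63 and 3.55 in cortex, and 3.80, 3.65 and 3.77 in striatum. Its MPTP values were 9.01, 8.77 and 8.85 in midbrain, 3.71, 3.41 and 3.32 in cortex, and 3.56, 3.38 and 3.62 in striatum. Cortex and striatum did not separate, and both lay more than 1 unit below 5.18 on every array. The saline midbrain mean of 8.72 ± 0.33 (SD, n = 3) was 3.54 above 5.18, which is the least by which midbrain exceeded the other regions if their values are background. A second probe set was much dimmer in midbrain, at 6.03 ± 0.22, and had the same regional pattern.

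Mab21l1 had the same shape on a lower level. The saline arrays read 7.44, 7.56 and 7.87 in midbrain, against 3.27, 3.45 and 3.38 in cortex and 3.22, 3.28 and 3.15 in striatum. The MPTP arrays read 8.24, 8.04 and 8.02 in midbrain, 3.37, 3.19 and 3.35 in cortex, and 3.22, 3.40 and 3.42 in striatum. All 3 MPTP midbrain arrays were above all 3 saline ones, while cortex and striatum again overlapped below 5.18. The saline midbrain mean was 7.62 ± 0.23 (SD, n = 3), 2.44 above 5.18, and that of the second probe set was 7.78 ± 0.32.

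Ebf3 was the third gene of this kind. It stood at 7.54, 7.53 and 7.26 on the saline midbrain arrays, at 4.26, 4.18 and 3.92 in saline cortex, and at 4.23, 4.22 and 4.15 in saline striatum. With MPTP it stood at 8.13, 8.32 and 8.17 in midbrain, at 3.94, 4.09 and 4.08 in cortex, and at 4.25, 4.15 and 4.24 in striatum. The midbrain groups did not overlap, and the MPTP arrays were the higher ones. Saline midbrain averaged 7.44 ± 0.16 (SD, n = 3), 2.26 above 5.18, and the 2 other probe sets averaged 8.31 ± 0.09 and 7.58 ± 0.13 there. Both of those were below 5.18 in cortex and striatum on every array.

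Lef1 differed least between regions, and it was above 5.18 on all 18 arrays. Saline midbrain gave 7.26, 6.41 and 6.29, saline striatum 6.02, 5.80 and 6.02, and saline cortex 5.69, 5.52 and 5.42. MPTP midbrain gave 6.74, 6.71 and 6.48, MPTP striatum 5.95, 5.79 and 5.79, and MPTP cortex 5.76, 5.57 and 5.77. Midbrain lay above both other regions on every array, and the first saline midbrain array was the highest of all. The saline means were 6.65 ± 0.53 in midbrain, 5.95 ± 0.13 in striatum and 5.55 ± 0.14 in cortex (SD, n = 3). The second Lef1 probe set, 4.76 ± 0.50 in saline midbrain, was above 5.18 on 1 array alone, the first saline midbrain array, at 5.19.

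Tnnt1 was the most uneven of the 6 in midbrain. Its saline midbrain values were 8.0, 6.39 and 6.99, and its MPTP midbrain values were 6.41, 5.74 and 6.24. In cortex it read 5.11, 5.05 and 5.09 with saline and 4.97, 5.11 and 5.22 with MPTP, and in striatum 5.40, 5.34 and 5.18 with saline and 4.77, 4.90 and 4.78 with MPTP. Midbrain was above the other regions on every array, but the first saline array stood 1.01 above the next midbrain array. The saline midbrain mean was 7.13 ± 0.81 (SD, n = 3), 1.95 above 5.18. This SD was the widest of the 6 genes in any group, and the gene had only this 1 probe set.

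**Figure D1:**
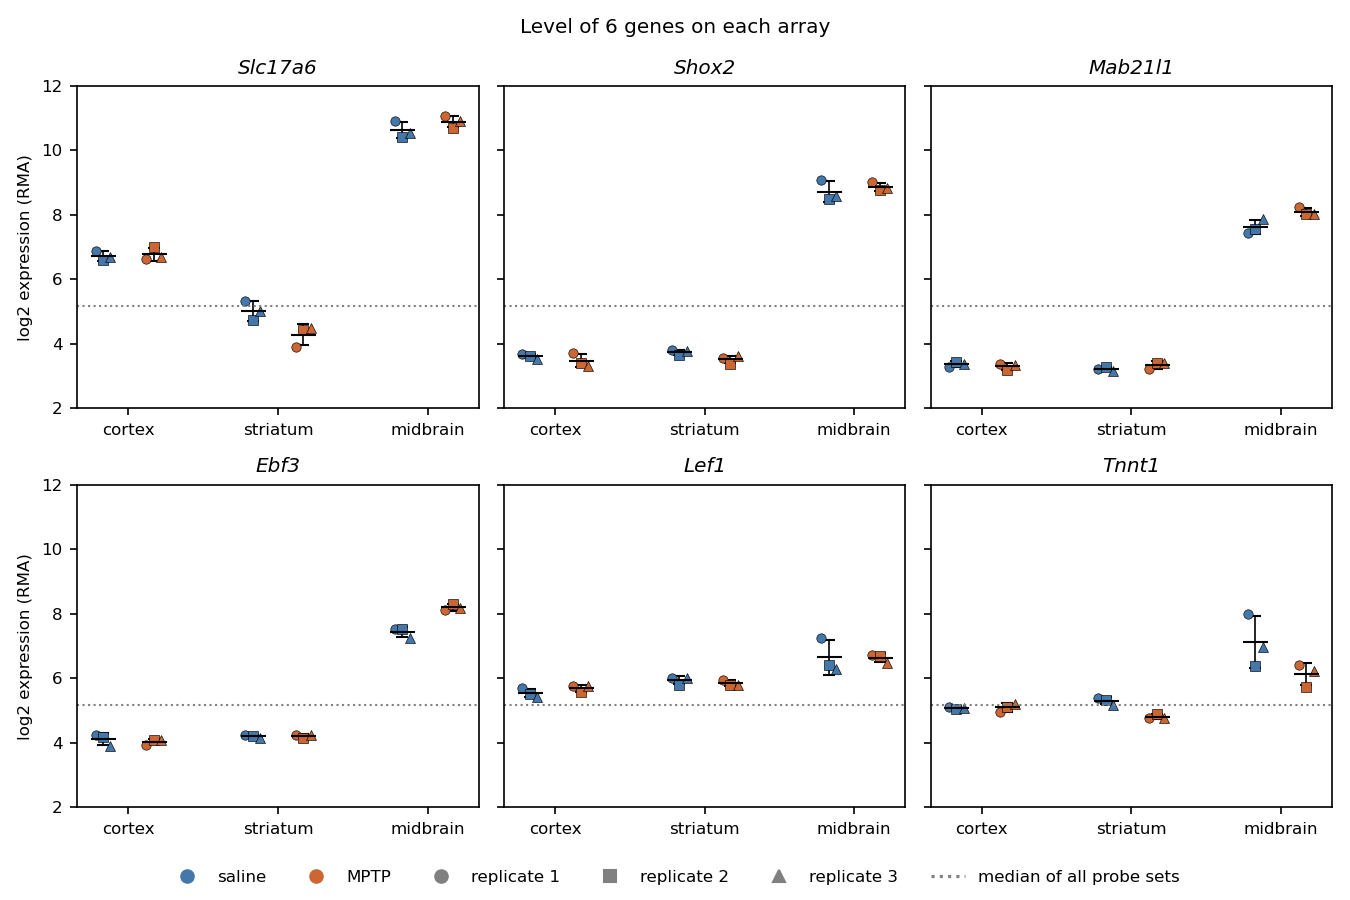
Log2 expression of the 6 genes (1 panel each, the probe set of highest mean) in frontal cortex, striatum and midbrain, with 1 point per array, saline in blue and MPTP in orange, symbols for replicates 1 to 3, and black bars for the group mean and SD. The dotted line marks 5.18, the median of all values; midbrain is highest in each panel, Shox2, Mab21l1 and Ebf3 lie below the line in the other regions, and saline replicate 1 stands alone for Tnnt1 at 8.0.

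On the saline arrays, which had served to choose the genes, midbrain minus cortex was 3.91 for Slc17a6, 5.10 for Shox2, 4.25 for Mab21l1, 3.33 for Ebf3, 1.10 for Lef1 and 2.04 for Tnnt1. Midbrain minus striatum was 5.61, 4.98, 4.40, 3.24, 0.70 and 1.82 in the same order. The groups did not overlap for any of the 6 in either comparison, which held for 28% of all tested genes in the first and 33.5% in the second. The values for Lef1 and Tnnt1 leaned on the first saline midbrain array. Without it, midbrain minus cortex was 0.80 for Lef1 and 1.61 for Tnnt1, and midbrain minus striatum was 0.40 and 1.38.

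The regions of the MPTP arrays are described in the same way, without a test. Their midbrain and striatum values are the saline levels plus the treatment differences that had entered the choice, and 4 of the genes passed the filter through midbrain alone. Slc17a6 was 4.12 higher in MPTP midbrain than in MPTP cortex (SE 0.16). Against striatum it was 6.62 higher, and since all 3 MPTP striatum values lay below 5.18, the distance of the midbrain mean to 5.18, which is 5.72, is the limit that holds.

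Shox2 was 5.39 higher in MPTP midbrain than in MPTP cortex (SE 0.14) and 5.36 higher than in striatum. Mab21l1 was 4.80 higher than in cortex (SE 0.13) and 4.75 higher than in striatum. Ebf3 was 4.17 higher than in cortex (SE 0.12) and 4.0 higher than in striatum. Both other regions were below 5.18 for these 3 genes, so that the distance of the MPTP midbrain mean to 5.18 is the lower limit on either difference. It was 3.70 for Shox2, 2.92 for Mab21l1 and 3.03 for Ebf3.

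Lef1 and Tnnt1 had far smaller regional differences. Lef1 was 0.94 higher in MPTP midbrain than in MPTP cortex (SE 0.17) and 0.80 higher than in striatum. Tnnt1 was 1.03 higher than in cortex (SE 0.24) and 1.31 higher than in striatum. Its means in both of those regions were below 5.18, so that the distance of its midbrain mean to 5.18, which is 0.95, is the safer limit. The MPTP midbrain arrays of all 6 genes lay above those of cortex and of striatum without overlap. That held for 35.6% of all tested genes against cortex and for 41.5% against striatum, and nothing is read from it for the 6. The other probe sets of the 5 genes that had them also lay higher in midbrain, although that of Lef1 had a mean below 5.18 in every region. With the mean over probe sets, midbrain minus cortex was 3.86 for Shox2 in place of 5.39.

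Striatum minus cortex in the MPTP arrays was -2.50 for Slc17a6 (SE 0.16), without overlap, and its second probe set gave -2.03. All MPTP striatum values of Slc17a6 lay below 5.18, so that the distance from the cortex mean to 5.18, which is 1.60, is the safer limit. The other 5 genes gave 0.04 for Shox2, 0.04 for Mab21l1, 0.17 for Ebf3, 0.14 for Lef1 and -0.28 for Tnnt1. The arrays of Tnnt1 did not overlap either, and a separation in the lower direction held for 34.6% of all tested genes. Those of Ebf3 and Lef1 were separate in the higher direction, as for 22.7% of all tested genes. For Shox2, Mab21l1 and Ebf3 both regions were below 5.18, so that no difference could have been measured there. The means of Tnnt1 were below 5.18 in both regions as well.

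**Figure D2:**
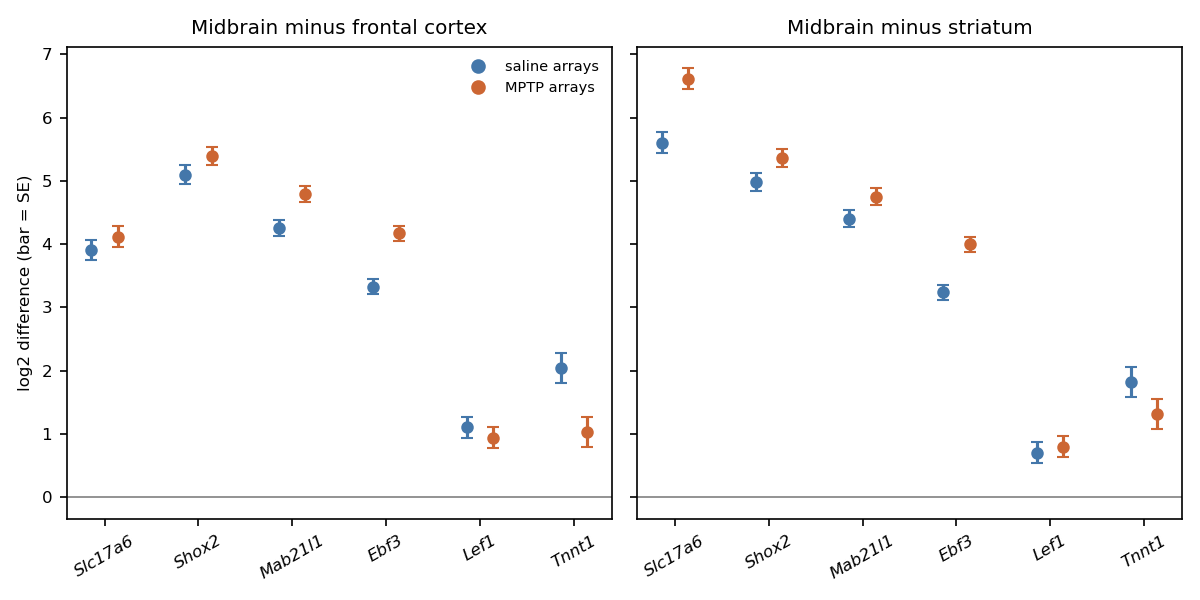
Log2 difference of midbrain from frontal cortex (left) and from striatum (right) for the 6 genes, on saline arrays in blue and MPTP arrays in orange, with bars for the SE of the fit and 3 arrays per group. Slc17a6, Shox2, Mab21l1 and Ebf3 lie above 3 in both panels, and Lef1 and Tnnt1 lie between 0.70 and 2.04.

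The treatment itself was compared next, first in frontal cortex, where it could be tested. None of the 6 genes passed, and 0.0681% of all tested genes did. MPTP minus saline in cortex was 0.06 for Slc17a6 (SE 0.16, adjusted p = 0.974, limma), 0.15 for Lef1 (SE 0.17, adjusted p = 0.941) and 0.02 for Tnnt1 (SE 0.24, adjusted p = 0.995). It was -0.14 for Shox2, -0.06 for Mab21l1 and -0.08 for Ebf3, which were below 5.18 in cortex with either treatment. The cortex means of Tnnt1, 5.09 with saline and 5.10 with MPTP, were also just below 5.18. None of the 6 had an unadjusted p under 0.05, and their groups overlapped in every case.

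In midbrain, where the genes are high, the 6 went different ways. Ebf3 was 0.76 higher with MPTP than with saline (SE 0.12), 1.70-fold, and Mab21l1 was 0.48 higher (SE 0.13), and for both no MPTP array overlapped with a saline array. That held in the higher direction for 11.1% of all tested genes, and since midbrain differences were among those used to choose the genes, nothing is read from it. Slc17a6 was 0.27 higher (SE 0.16), Shox2 0.16 higher (SE 0.14) and Lef1 0.01 lower (SE 0.17), all with overlapping groups. Tnnt1 was 1.0 lower with MPTP (SE 0.24), 2.0-fold, and its groups overlapped by a narrow margin, since MPTP replicate 1 at 6.41 exceeded saline replicate 2 at 6.39.

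The other probe sets did not repeat the higher values with MPTP. Ebf3 differed by 0.76 on the probe set used, by 0.01 (SE 0.11) on the second and by 0.18 (SE 0.13) on the third, both with overlapping groups. Mab21l1 differed by 0.12 (SE 0.14) on its second probe set, again with overlap. With the mean over its probe sets in place of the chosen one, Ebf3 was 0.32 higher with MPTP. Shox2 differed by -0.21 (SE 0.18) on its second probe set, against 0.16 on the first, and Slc17a6 by 0.03 (SE 0.14) against 0.27.

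**Figure D3:**
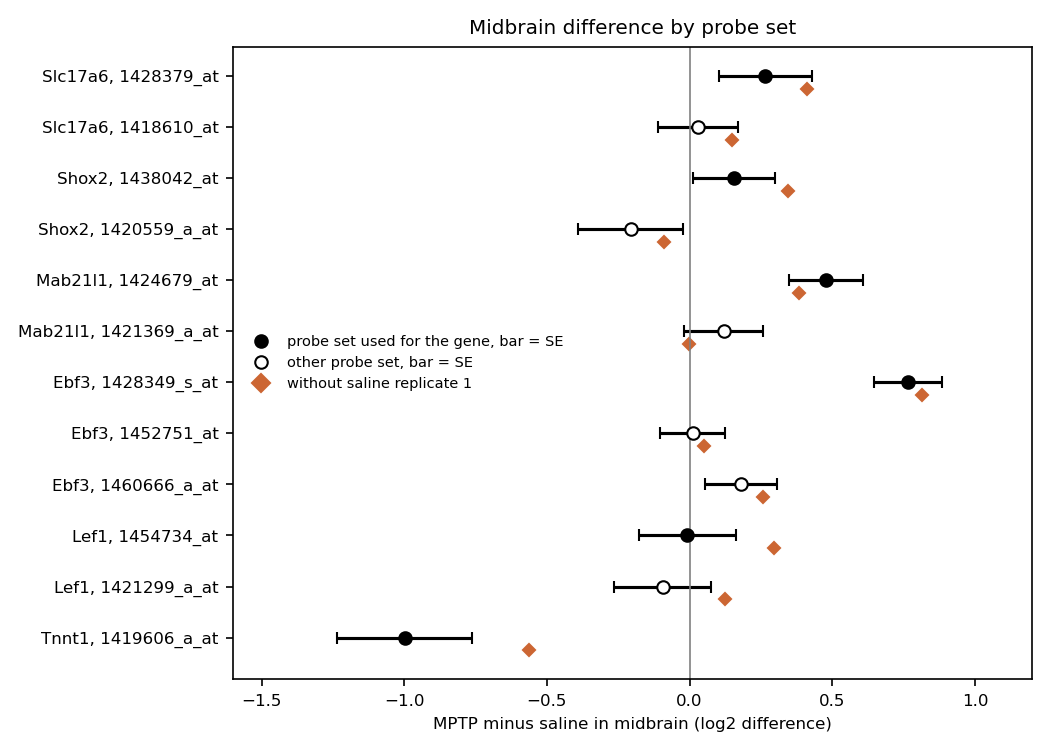
MPTP minus saline in midbrain, as a log2 difference, for each of the 12 probe sets, with filled circles for the probe set used for a gene, open circles for the others, bars for the SE, and orange diamonds for the difference without saline replicate 1. Ebf3 lies at 0.76 on 1 probe set and at 0.01 and 0.18 on the others, and Tnnt1 moves from -1.0 to -0.56 without saline replicate 1.

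Leaving out the first saline midbrain array changed the picture most for 2 genes. Tnnt1 was then 0.56 lower with MPTP in place of 1.0, and Lef1 was 0.30 higher in place of 0.01 lower. Slc17a6 went from 0.27 to 0.41 and Shox2 from 0.16 to 0.35, while Ebf3 at 0.81 and Mab21l1 at 0.38 stayed close to their values over all arrays. With each midbrain array left out in turn, Tnnt1 ranged from -1.36, without saline replicate 2, to -0.56. Saline replicate 1 was the highest of the 6 midbrain arrays for the chosen probe sets of Shox2, Lef1 and Tnnt1, and for 4 of the 6 other probe sets. Slc17a6, Mab21l1 and Ebf3 had their highest value on an MPTP array instead, and on both Mab21l1 probe sets saline replicate 1 was the lowest array.

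Genes of neighbouring brain structures were read on the same 6 arrays, to describe how far each piece of tissue reached beyond the midbrain. Of 21 thalamic genes listed, 18 were tested, and 14 of these were highest on saline replicate 1, or 77.8%, against 25.7% of all tested genes. Their summed log2 level was 151 on that array, 134 and 136 on the other saline arrays, and 131 to 135 on the MPTP arrays. Prkcd, a protein kinase C abundant in thalamic relay neurons, read 9.40 on saline replicate 1 and 6.12 to 7.11 on the other 5 arrays. Ramp3, a receptor partner protein, read 8.62 there and 5.69 to 6.35 elsewhere. Tcf7l2, which like Lef1 is a TCF/LEF factor and marks thalamic neurons, did not share this, with 6.23 on saline replicate 1 and its highest value, 6.96, on saline replicate 2.

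Only 9 of the 11741 tested genes were more than 1 unit higher on saline replicate 1 than on every other midbrain array. Tnnt1 was one of them, and 5 others were on the thalamic list, namely Prkcd, Ramp3, Synpo2, Rgs16 and Plekhg1. The remaining 3, named after their values were seen, were the hypothalamic peptide gene Pmch, the peptide gene Tac2, which is strong in the habenula, and Rasgrp1. The hypothalamic list did not follow Pmch, since 2 of its 8 tested genes were highest on saline replicate 1 and its median there was 0.0025 from the mean of the 6 arrays. Pmch was called in midbrain, 1.10 lower with MPTP (adjusted p = 0.0466, limma), and was 0.46 lower without saline replicate 1. Its MPTP midbrain mean, 5.10, lay below 5.18. Its call was lost without the filter (adjusted p = 0.0565), and single arrays left out gave an adjusted p of up to 0.171. Lef1, at 0.52 above the next array, and Shox2, at 0.09, were highest on saline replicate 1 by less. Saline replicate 2 had 22 genes of this kind, saline replicate 3 and MPTP replicate 1 had 1 each, and none of those was thalamic or one of the 6.

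Hindbrain and cerebellar genes followed another order. The 7 hindbrain genes tested had a median of 0.69 below the mean of the 6 arrays on saline replicate 1 and of 0.41 above it on saline replicate 3. Their summed level was 37.1 to 44.7 on the saline arrays and 38.1 to 41.9 on the MPTP arrays. Slc6a5, the glycine transporter of inhibitory hindbrain neurons, read 4.72, 7.55 and 7.97 on saline replicates 1 to 3 and 5.58 to 6.02 with MPTP. Other genes of the list varied on the MPTP arrays too. Tph2 read 4.59, 5.87 and 6.45 with saline and 6.37, 4.34 and 6.59 with MPTP. Slc6a4 read 5.57, 6.42 and 6.73 with saline and 7.16, 5.21 and 6.80 with MPTP. Glra1 was the only one called of the 7, against 2.54% of all tested genes. It was 0.84 lower with MPTP (adjusted p = 0.0209, limma), with an adjusted p of up to 0.127 when single arrays were left out. Glra1 read 5.60, 5.21 and 6.35 with saline and 4.73, 5.04 and 4.87 with MPTP, the latter all below 5.18. The hindbrain list had 4 higher and 3 lower values with MPTP, with a median of 0.13. Of 5 cerebellar genes 4 were highest on saline replicate 3, or 80%, against 25.8% of all tested genes. The Purkinje cell gene Pcp2 read 8.61 there, against 4.07 to 6.27 on the other arrays. Cbln1, the remaining gene, was highest on saline replicate 1, at 9.19. The summed cerebellar level was 30.3 to 37.1 with saline and 31.5 to 32.0 with MPTP. Tnnt1 thus stood high on the array where the thalamic genes were high and the hindbrain genes low. The hindbrain genes were also low on MPTP replicate 2, at a sum of 38.1, where Tnnt1 had its lowest midbrain value, 5.74. They were highest on saline replicate 3, where Tnnt1 read 6.99. The part that the reach of the tissue has in the lower Tnnt1 value with MPTP was not tested, beyond the value of 0.56 without saline replicate 1.

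**Figure D4:**
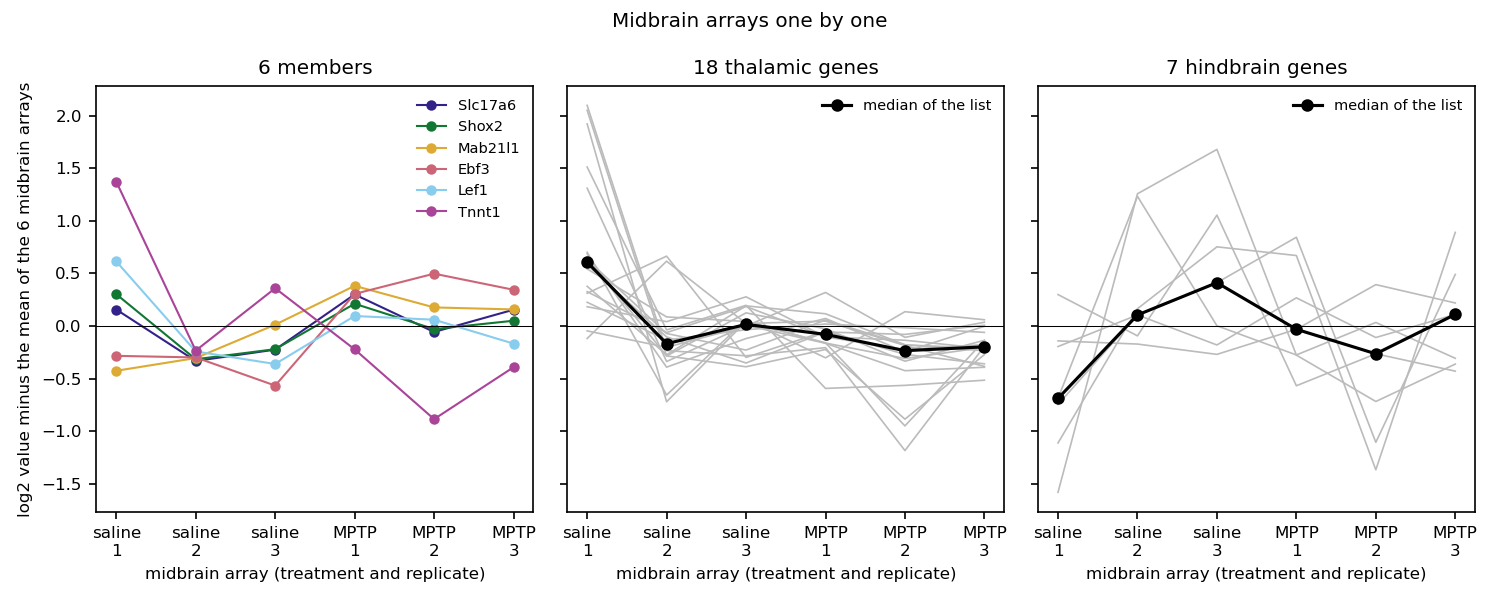
Log2 value minus the mean of the 6 midbrain arrays, on each midbrain array, for the 6 genes (left, 1 colour a gene), for 18 thalamic genes (middle) and for 7 hindbrain genes (right), with grey lines for single genes and black for the median of the list. Lines join the values of 1 gene and stand for no order; the thalamic median is 0.61 on saline replicate 1, where the hindbrain median is -0.69 and Tnnt1 lies at 1.37.

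With MPTP the thalamic genes had a median of -0.33 in midbrain, 17 of 18 with the lower value, and 1 of them was called, the G protein regulator Rgs16. An unadjusted p under 0.05 was found for 10 of the 18. All tested genes had a median of 0.03, with 2.54% called and 16.6% at an unadjusted p under 0.05. Rgs16 fell by 1.11 (SE 0.25, adjusted p = 0.0179, limma), from 7.51, 5.96 and 6.20 to 5.41, 5.43 and 5.48, with no overlap. Without saline replicate 1 the thalamic median was -0.11 with 12 of 18 lower, and Rgs16 stood 0.64 lower (adjusted p = 0.0202). Prkcd was 1.05 lower with MPTP over all arrays and 0.27 lower without saline replicate 1, and Ramp3 0.92 and 0.12 lower, and neither passed in either case. The call of Rgs16 was lost without MPTP replicate 1 (adjusted p = 0.0578) and without MPTP replicate 3 (adjusted p = 0.107), and also with robust moderation and with the mean over probe sets.

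The 14 tested factors of midbrain development and identity were mostly higher with MPTP, 11 higher and 3 lower with a median of 0.16. None of them was called, although 5 had an unadjusted p under 0.05. Of all 11741 tested genes 6690 were higher. Without saline replicate 1 the factors were 9 higher and 5 lower with a median of 0.13. Then 7515 of all tested genes were higher, with a median of 0.06. The 9 dopaminergic genes tested had a median of -0.17, 6 lower and 3 higher. None was called, with 3 at an unadjusted p under 0.05. Of these 9 genes 6 were highest on saline replicate 1, or 66.7%, against 25.7% of all tested genes. Without that array their median was -0.025, with 6 of 9 lower. Th, the rate-limiting enzyme of dopamine synthesis, read 8.97, 8.92 and 8.64 with saline and 8.09, 8.04 and 7.94 with MPTP, which was 0.82 lower (SE 0.29, adjusted p = 0.133, limma) with no overlap. In a fit of the 6 midbrain arrays alone Th was called (adjusted p = 0.000113, limma). The dopamine transporter Slc6a3 was 0.37 lower (adjusted p = 0.208, limma). Without saline replicate 1 Th was 0.76 lower and Slc6a3 0.24 lower. Aldh1a1, 1 of the 3 dopaminergic genes with a higher value, read 11.18, 11.02 and 11.11 with saline. With MPTP it read 11.33, 11.28 and 11.35, with no overlap.

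The relatives of the 6 genes gave single calls in midbrain. Of the 18 other Wnt and TCF pathway genes tested 1 was called, against 2.54% of all tested genes. The list had 9 higher and 9 lower values with a median of -0.03, and nothing is read from the single call for the list. The called gene was the ubiquitin ligase Znrf3, which removes Wnt receptors from the cell surface. Znrf3 rose by 0.54 (adjusted p = 0.0413, limma), from 6.07, 5.60 and 5.56 to 6.10, 6.32 and 6.44. Mab21l2, the other Mab21 gene tested, rose by 0.56 (adjusted p = 0.0466, limma), from 5.86, 6.21 and 5.79 to 6.43, 6.74 and 6.39, with no overlap. Either call was lost without the filter, with the mean over probe sets and when single arrays were left out, for Znrf3 on leaving out any of 4 arrays and for Mab21l2 any of 5. Of 2 other EBF genes, 3 other troponin genes and 3 other glutamate transporter genes tested, none was called and none had an unadjusted p under 0.05. Slc17a7, the cortical counterpart of Slc17a6, ranged from 4.52 to 6.60 over the midbrain arrays, and MPTP minus saline was -0.77 (SE 0.50, adjusted p = 0.460).

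In striatum Lef1 alone lay above 5.18 on every array, and the differences of the other 5 genes rest on values close to it or below it. Slc17a6 was 0.74 lower with MPTP (SE 0.16) and did not overlap with saline, and its second probe set was 0.31 lower, also without overlap. Tnnt1 was 0.49 lower (SE 0.24) without overlap, from 5.31 ± 0.11 to 4.82 ± 0.07 (SD, n = 3). Shox2 was 0.22 lower without overlap, on levels of 3.38 to 3.80. Such a separation in the lower direction held for 14.7% of all tested genes, and 2.1% were called in either direction. Mab21l1 at 0.13, Ebf3 at 0.01 and Lef1 at -0.10 had overlapping groups. The Slc17a6 difference set 1 saline array above 5.18, at 5.34, against MPTP values that were all below it. All 9 tested genes of a cortical excitatory list were also lower in MPTP striatum, with a median of -0.33 and none called. The median of all tested genes there was -0.03. Slc17a7 was at -1.22 (adjusted p = 0.215, limma). Slc17a6 was higher in cortex than in striatum, and the part of cortical tissue in its lower striatal value was not tested.

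The genes whose values ran most like those of the 6 over the 18 arrays were, for the most part, others that were high in midbrain. Pearson's r over 18 arrays that fall into 3 regions mostly reflects the regions, and it is given as a description. Slc17a6 was closest to Grip2 (r = 0.990), Zfp423 and Sptssb. Shox2 was closest to the homeobox gene Irx3 (r = 0.997), followed by Slc6a3 and AW551984. Irx3 also led for Mab21l1 (r = 0.993), ahead of Syt2 and Itpkb, and for Ebf3 (r = 0.993), ahead of Smim17 and Aldh1a1. Lef1 was closest to Amotl1 (r = 0.951), then Vav3 and Ctxn2, and Tnnt1 to Fads2, Ctxn3 and Limk2, all at r = 0.924. Among the 6 genes themselves, Shox2, Mab21l1 and Ebf3 correlated at 0.991 to 0.994 with each other, and the lowest pair was Slc17a6 and Lef1 at 0.754.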

How the data were processed

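Each sample of total RNA was read on 1 Affymetrix mouse array. The deposited table held log2 values, 1 per probe set and array, which the authors had obtained with RMA according to the submitters' processing notes. No version of it was named there. The method brings the arrays to one distribution, so that a shift of all genes would not show. Of 45101 probe sets, 34958 named 1 gene, 932 several and 9211 none, and only the first kind was used.

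Where a gene had several probe sets, the one with the highest mean on the 18 arrays was used. A model of 6 group means with an intensity trend was fitted to all 18 arrays in limma 3.58.1 (R 4.3.3), with Benjamini-Hochberg adjustment per comparison over 11741 genes and a threshold of 0.05. The labels call the replicates biological, and 3 arrays per group limit the precision. The fit was first tested on simulated data. The members, gene lists and tests were chosen with earlier results of these data known. Region differences of the members in MPTP arrays were planned as tests and are given without p-values, since they follow from values used in the choice. The naming rule took all members, their 3 most alike genes, and called genes of each list in midbrain and striatum. Called in midbrain but not described above were Tac1 (0.64), Gad1 (0.49) and Gja1 (0.44), at adjusted p of 0.0111, 0.0189 and 0.0321 (limma). In striatum the called list genes were Mag, Cnp, Mbp, Gfap, Gja1 and Aqp4, all higher with MPTP. Other list genes are named only where a result turns on them. Members of the lists are not among the 6. Names and promoters came from the RefSeq tables of GRCm38.p6, without conversion of coordinates. Alternatives changed the filter, normalization, probe set rule, variance model, weights, arrays and blocks.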

Additional observations from a re-analysis of the deposited data

How the results depend on the processing

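In MPTP arrays the midbrain values of the 6 genes stayed above those of either other region in 100 values each, over the settings in which a gene was kept, and the counts over all genes for the 3 region comparisons stayed within 1.5 times. The treatment counts did not. In frontal cortex 8 genes were called; a filter at the 75th percentile gave 5, quantile normalization 4, centring 2, the mean over probe sets 1, no intensity trend 0 (731 at an unadjusted p under 0.05, limma), array weights 14, the 2 groups alone 36, and leaving out arrays 0 to 1 (387 to 903 unadjusted where 0). In striatum 247 became 745, 134, 162 and 487 with quantile normalization, the mean over probe sets, no trend and array weights, and 69 to 291 with arrays left out. In midbrain 298 became 728, 68, 153 and 833, and 12 to 955 with arrays left out, 12 without MPTP replicate 3 and 955 without saline replicate 1. The cause was not tested. With the replicate number as a block 17 genes were called in cortex. The numbers were not taken as pairs, since the labels do not say that arrays of the same number share an animal. Of 18 pairs with the same number and treatment across regions 11 correlated above 0.1, against 4 of 36 pairs with other numbers. Arrays of the same number were thus more alike by this count, while the correlation fitted for such blocks over all genes was 0.0056. Whether they share an animal was not tested.

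The mean over probe sets took Tcf7l2 in midbrain to 0.13, Shox2 in midbrain to -0.025 and Ebf3 in striatum to -0.045, and array weights took Lef1 in midbrain to 0.10. Small values changed sign when 1 array was left out, namely Slc17a6 (-0.063 to 0.14) and Tnnt1 (-0.046 to 0.081) in cortex, Shox2 (-0.045 to 0.15) and Mab21l1 (-0.014 to 0.11) for striatum minus cortex, Ebf3 in striatum (-0.017 to 0.040), and Lef1 (-0.19 to 0.30) and Pcp2 (-2.07 to 0.20) in midbrain. No intensities were at hand, so signal over background could not be judged.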
